A study of Mus musculus with 4 samples.

Results

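The genes described are 10 type 2 cytokine genes, the alarmin gene Tslp and genes of their receptors, namely Il4, Il5, Il13, Tslp, Il4ra, Il13ra1, Il13ra2, Il5ra, Il31ra and Crlf2. They were taken by name from the gene column of the array files, every probe of each gene included, which gave 12 probes on 21 spots, out of 55681 probes on 59305 spots in all. The samples were ears of 2 mutant mice (K14Cre RelAfl/fl, labelled RelAE-MUT) and 2 wild-type mice (RelAfl/fl), collected 48 h after 2,4-dinitrofluorobenzene (DNFB), a contact allergen, had been put on the ear. All 4 mice carried the floxed allele of Rela, whose product p65 is a subunit of NF-kB, a transcription factor, and all 4 ears were treated. The keratin 14 promoter drives the Cre recombinase in basal keratinocytes and skin appendages, so leukocytes and fibroblasts of the ear do not delete the gene through it, and only the mutants carried the recombinase. Ages are not given in the labels, and untreated ears were not analysed here.

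IL-4 and IL-13, made mainly by T helper 2 cells, group 2 innate lymphoid cells, basophils and mast cells, share a receptor built on the IL-4 receptor alpha chain and signal through Janus kinases to STAT6. IL-5 acts on eosinophils. TSLP is an alarmin that keratinocytes release under stress and that promotes type 2 responses, and IL-31 is a cytokine of itch. In contact allergy of the skin these cytokines act beside the type 1 and type 17 responses.

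RNA of each ear was hybridised to 1 single-colour (Cy3) array, with all 4 arrays on 1 slide read in 1 scan. Between 61.21% and 64.27% of the spots of an array were well above background and 0 were saturated. Markers of the tissue were detected, with 12 of 12 keratinocyte genes, 6 of 6 fibroblast genes, 4 of 5 cartilage genes and 5 of 5 muscle genes above background in at least 1 group. Rela itself stood at 4.59 and 4.72 in the mutants and at 4.48 and 4.60 in the wild types, as log2 of the intensity minus that of the array's 75th percentile, the scale of all levels below. Its adjusted p was 0.899, and whether its probe lies in the deleted part is not given in the labels, so this does not check the genotype. The array of mutant mouse 2 has a damaged corner of 3068 spots (5.17%), which holds the spot of Rela, 2 of the 10 spots of Il4 and, at its edge, the spot of Il5ra. Each difference is mutant minus wild type, with limma's moderated standard error and a Benjamini-Hochberg adjusted p over 33674 tested probes. Tested probes were those flagged well above background for both mice of the mutant group, of the wild-type group or of both. Nothing says whether the mice of a group came from separate litters or batches, and the number of arrays limits the precision.

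Il4, Il13 and Il5 lie in 1 cluster on chromosome 11. In build GRCm38.p6, 12.7 kb separate Il4 from Il13 and 86.1 kb separate Il13 from Il5. The 250 bases before the start sites of Il4 and Il13 are shown since these neighbours were both above background on all 4 arrays, with a positive difference for Il13 and a negative one for Il4. The sequences are from RefSeq (GRCm38.p6, minus strand), at chr11:53618666-53618915 for Il4 and chr11:53634703-53634952 for Il13. Capitals mark matches on either strand to any of 5 motifs. They are the core bound by NFAT factors (GGAAA), the motif of GATA factors (AGATAA), the palindrome of STAT factors (TTC, then any 4 bases, then GAA), the box of the TATA-binding protein (TATAAA) and the NF-kB consensus.
Il4: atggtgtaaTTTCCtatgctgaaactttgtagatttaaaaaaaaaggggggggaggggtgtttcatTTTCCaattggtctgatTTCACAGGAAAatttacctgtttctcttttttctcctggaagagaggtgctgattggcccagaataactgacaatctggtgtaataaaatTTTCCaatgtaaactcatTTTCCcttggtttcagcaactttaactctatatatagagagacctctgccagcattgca
Il13: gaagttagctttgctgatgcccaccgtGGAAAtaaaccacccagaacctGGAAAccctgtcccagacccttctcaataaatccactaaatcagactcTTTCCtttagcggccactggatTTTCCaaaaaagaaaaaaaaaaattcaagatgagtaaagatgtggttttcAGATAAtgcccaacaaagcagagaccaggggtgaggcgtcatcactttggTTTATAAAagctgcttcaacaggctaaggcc
The window of Il4 held 5 matches to the NFAT core and 1 to the STAT motif, which overlaps 1 of them. That of Il13 held 4 matches to the NFAT core, 1 to the GATA motif and an overlapping pair to the TATA motif, 1 on each strand. RefSeq promoters were at hand for 9 of the 10 genes, in 10 windows, since Il4 has a second start site, whose window held 0 matches. Of the 10 windows 0 held the NF-kB consensus, against 7.25% of all 32851 windows. The NFAT core was in 7 (55.6% of all windows), the GATA motif in 3 (9.99%), the TATA motif in 2 (12.4%) and the STAT motif in 1 (5.85%). These matches describe the letters of the windows and no binding was measured.

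The sequences of 3 probes are shown for the genes whose measurements rest on many spots or on probes that differ. Each can be read in at least 1 frame without a stop codon, and positions are those of build mm9.
Il4 (chr11:53426076-53426135, minus strand): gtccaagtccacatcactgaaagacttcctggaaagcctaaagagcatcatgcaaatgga
Il4ra (chr7:132712550-132712609, plus strand): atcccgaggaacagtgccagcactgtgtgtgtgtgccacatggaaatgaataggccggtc
Il31ra (chr13:113323132-113323191, minus strand): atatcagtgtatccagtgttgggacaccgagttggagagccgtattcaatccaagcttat
The Il4 probe was printed 10 times on each array. The Il4ra probe starts at base 466 of its transcript and a second one at base 5027, and the Il31ra probe starts at base 1567 and a second one at base 3165. The probe of Il13 lies at chr11:53444828-53444887 on the minus strand. No exon annotation of this build was used here.

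Among the 10 tested probes, that of Il13 had the largest difference and that of Il13ra2 the next largest, both toward higher values in the mutants. Of these 10 probes, 0 passed the threshold with limma. Over all tested probes 0.0208% passed, 0.0119% with higher and 0.00891% with lower values in the mutants. At an unadjusted p under 0.05 there were 2 of the 10, Il13 and Il13ra2, against 6.55% of all tested probes (2.99% above and 3.56% below). The groups did not overlap at 3 probes, with the mutants above at 2 and below at 1, against 36.3% of all tested probes (18.7% above and 17.6% below). A share of 3 in 10 is near that background. Of the 10 differences 5 were positive and 5 negative, with a median of 0.01, the same as the 0.01 over all tested probes. Absolute differences of at least 1 were found at 1 of the 10 probes and at 1.84% of all. The adjusted p of the members lay between 0.589 and 0.997.

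**Figure D1:**
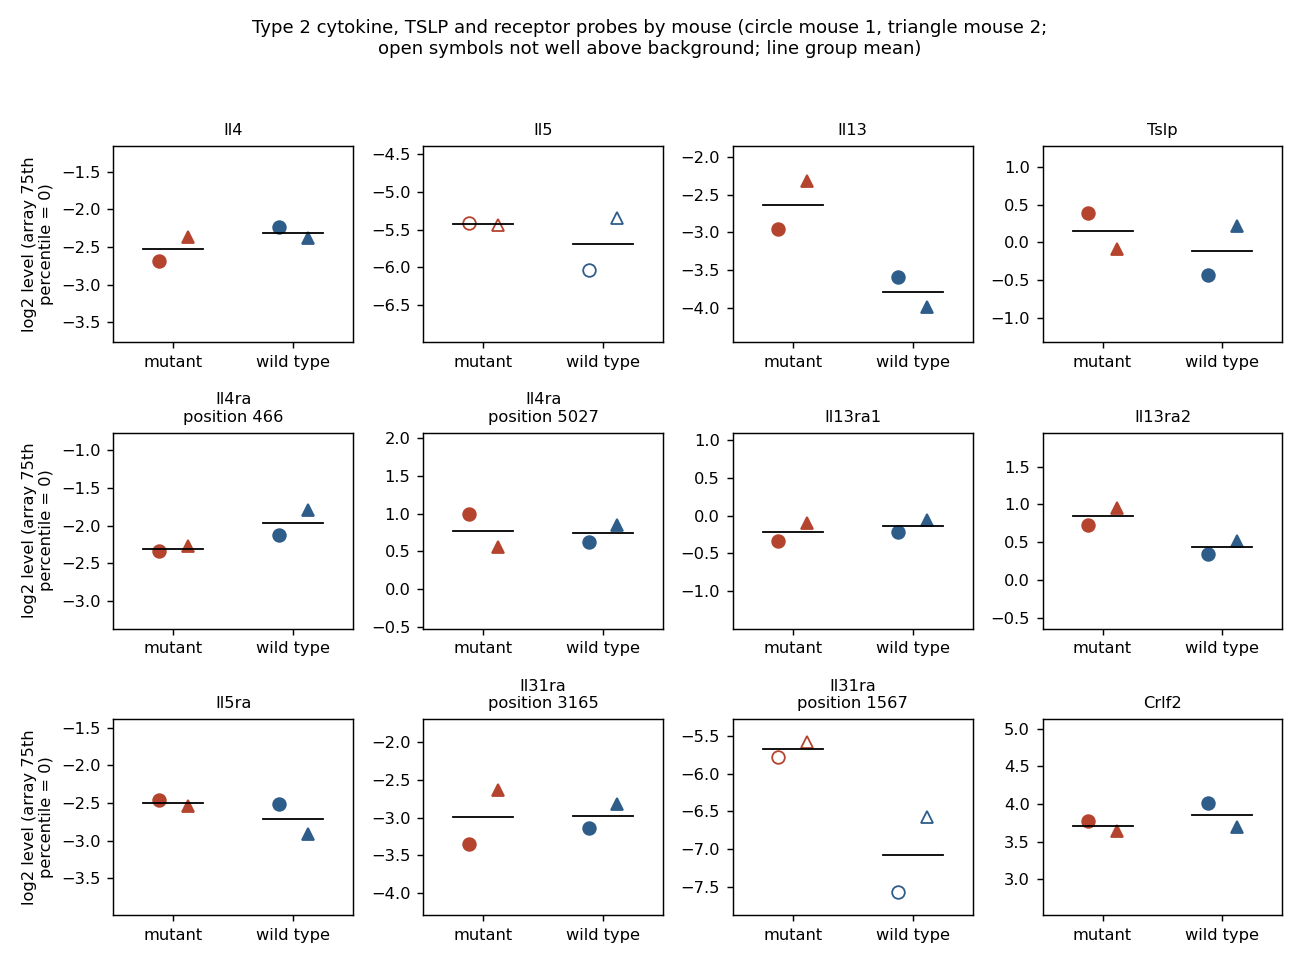
Level of each of the 12 probes in each mouse, as log2 of the intensity minus that of the array's 75th percentile, mutants in red at the left and wild types in blue at the right, with lines at the group means and every panel spanning the same range of log2 units. Il13 and Il13ra2 stood higher in both mutants than in both wild types, the Il4ra probe at position 466 lower, and open symbols mark the probes of Il5 and Il31ra that were not well above background.

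Il13, which encodes the cytokine that drives mucus, fibrosis and epithelial changes in type 2 inflammation, had processed intensities of 80.2 and 117 in the mutants, against 55.0 and 39.2 in the wild types. Its levels were -2.95 and -2.33 in the mutants and -3.59 and -3.99 in the wild types. Both mutant mice stood above both wild-type mice, and mutant mouse 2 was the highest of the 4. The log2 difference was 1.15 ± 0.27 (SE, n = 2 mice per group), a 2.23-fold higher mean in the mutants, with a 95% interval of 1.36-fold to 3.64-fold. The interval is that of this probe alone, and over all tested probes limma's adjusted p was 0.589. The raw signals of the spot were 111 and 153 in the mutants and 85.3 and 69.6 in the wild types, over a local background of 19 and 14 and of 17 and 18. With normexp background correction of these raw signals the log2 difference was 0.64, with an adjusted p of 0.633. The spot lies outside the damaged corner of the array.

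Il4, the cytokine that directs T helper 2 cells and class switching to IgE, differed less, with mean intensities of 96.2 and 115 in the mutants and 141 and 120 in the wild types. Its levels were -2.69 and -2.36 in the mutants and -2.24 and -2.38 in the wild types, so that the groups overlapped. The log2 difference was -0.22 ± 0.16 (SE, n = 2 mice per group; limma's adjusted p = 0.868), with a 95% interval of -0.64 to 0.20. The repeated spots show the error within an array. Intensities ran from 84.4 to 109 over 9 spots in mutant mouse 1, where 1 other spot had an outlier flag, and from 98.1 to 129 over 10 spots in mutant mouse 2. They ran from 131 to 154 in wild-type mouse 1 and from 109 to 131 in wild-type mouse 2, over 10 spots each. The SD of the log2 values over the spots of an array was 0.11 and 0.13 in the mutants and 0.07 and 0.09 in the wild types. The means over the spots were -2.69 and -2.36 in the mutants, further apart than these SDs. Leaving out the corner of the array, and with it 2 spots of mutant mouse 2, gave a difference of -0.23.

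**Figure D2:**
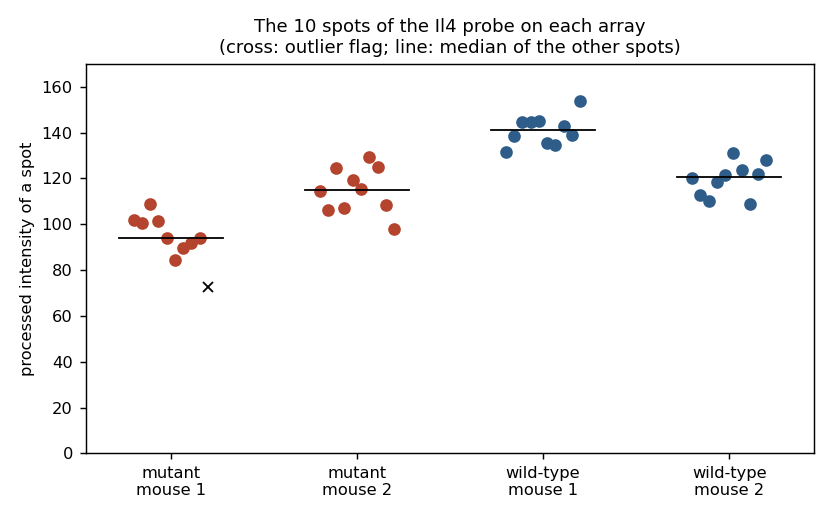
Processed intensity of the 10 spots of the Il4 probe on the array of each mouse, mutants in red and wild types in blue, with a line at the median and a cross for the spot with an outlier flag. These intensities are not scaled between arrays. The unflagged spots of mutant mouse 1 (84.4 to 109) and of mutant mouse 2 (98.1 to 129) lie below those of wild-type mouse 1 (131 to 154). The spots of wild-type mouse 2 (109 to 131) overlap those of mutant mouse 2. On the scaled log2 levels, mutant mouse 2 (-2.585 to -2.185) overlaps wild-type mouse 1 (-2.337 to -2.109), while mutant mouse 1 (-2.877 to -2.509) stays below it.

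Within a mouse, the level of Il13 minus that of Il4 was -0.26 and 0.04 in the mutants and -1.36 and -1.61 in the wild types on the log2 scale. Only the change in this difference between mice can be read, since levels of different probes are not on 1 scale. It was 1.37 higher in the mutants, with no overlap between the groups. The two-sided exact permutation p was 0.333, which is the smallest that 2 against 2 mice can give. This pair was singled out after its values were seen, so the p carries no weight as a test.

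Il5, the growth and survival factor of eosinophils, was not well above background on any of the 4 arrays and was not tested. Its processed intensities were 14.5 and 13.6 in the mutants and 10.1 and 15.3 in the wild types, and the dimmest spots that counted as well above background on these arrays had between 13 and 15.8. Small differences in Il5 could not be resolved at this signal.

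Tslp had levels of 0.39 and -0.09 in the mutants and -0.44 and 0.22 in the wild types. Wild-type mouse 1 was the lowest and mutant mouse 1 the highest, and the groups overlapped. The log2 difference was 0.26 ± 0.29 (SE, n = 2 mice per group; limma's adjusted p = 0.908), with a 95% interval of 0.70-fold to 2.03-fold. Without wild-type mouse 1 the difference was -0.07 and without wild-type mouse 2 it was 0.59, so its sign rests on which wild-type mouse is used. Crlf2, the TSLP-binding chain of the TSLP receptor, had 3.78 and 3.64 in the mutants and 4.02 and 3.70 in the wild types. Those groups overlapped, with a log2 difference of -0.15 ± 0.16 (adjusted p = 0.898). Il7r, the other chain of that receptor, named for this role, had -0.13 ± 0.18 (adjusted p = 0.926).

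Il13ra2, which binds IL-13 with high affinity and is known mainly as a decoy that takes the cytokine up without activating STAT6, had levels of 0.73 and 0.96 in the mutants and 0.35 and 0.52 in the wild types. Both mutants stood above both wild types. The log2 difference was 0.41 ± 0.14 (SE, n = 2 mice per group), a 1.33-fold higher mean in the mutants with a 95% interval of 1.02-fold to 1.73-fold. Over all probes limma's adjusted p was 0.737. Il13ra1, the chain that pairs with the IL-4 receptor alpha chain to signal for IL-13, had -0.34 and -0.09 in the mutants and -0.22 and -0.06 in the wild types. Its groups overlapped, and the log2 difference was -0.08 ± 0.14 (adjusted p = 0.945), with a 95% interval of -0.46 to 0.30. The level of Il13ra2 minus that of Il13ra1 was 1.07 and 1.05 in the mutants and 0.57 and 0.58 in the wild types. That within-mouse difference was 0.49 higher in the mutants on the log2 scale, again with an exact permutation p of 0.333, the smallest possible. This pair too was chosen after the values were seen, so that p carries no weight as a test either.

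Il4ra, the chain that receptors for IL-4 and IL-13 share, gave different values at its 2 probes. At the brighter one, at transcript position 5027 (chr7:132722922-132722981), levels were 0.99 and 0.56 in the mutants and 0.63 and 0.85 in the wild types. Both wild types lay between the mutants, and the log2 difference was 0.04 ± 0.19 (SE, n = 2 mice per group; limma's adjusted p = 0.983). At position 466 levels were -2.34 and -2.27 in the mutants and -2.13 and -1.79 in the wild types, with both mutants below both wild types. There the log2 difference was -0.34 ± 0.16 (adjusted p = 0.802), with a 95% interval of -0.76 to 0.07. The 95% intervals of the 2 probes overlap, and no difference of Il4ra was resolved.

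Il5ra, the IL-5-binding chain of the IL-5 receptor, had -2.46 and -2.54 in the mutants and -2.51 and -2.91 in the wild types. Wild-type mouse 2 was the lowest, the groups overlapped, and the log2 difference was 0.21 ± 0.17 (SE, n = 2 mice per group; limma's adjusted p = 0.88). Its spot lies on the edge of the damaged corner, and without that corner mutant mouse 1 alone stood for its group. Its difference was 0.41 when wild-type mouse 1 was left out and 0.0093 when wild-type mouse 2 was. Il31ra, the IL-31-binding chain of the receptor for that cytokine, had -3.34 and -2.64 in the mutants and -3.14 and -2.82 in the wild types at position 3165. Both wild types lay between the mutants, with a log2 difference of -0.01 ± 0.28 (adjusted p = 0.997). At position 1567 Il31ra was not well above background on any array, with intensities of 11.3 and 12.3 in the mutants and 3.48 and 6.53 in the wild types, and was not tested.

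**Figure D3:**
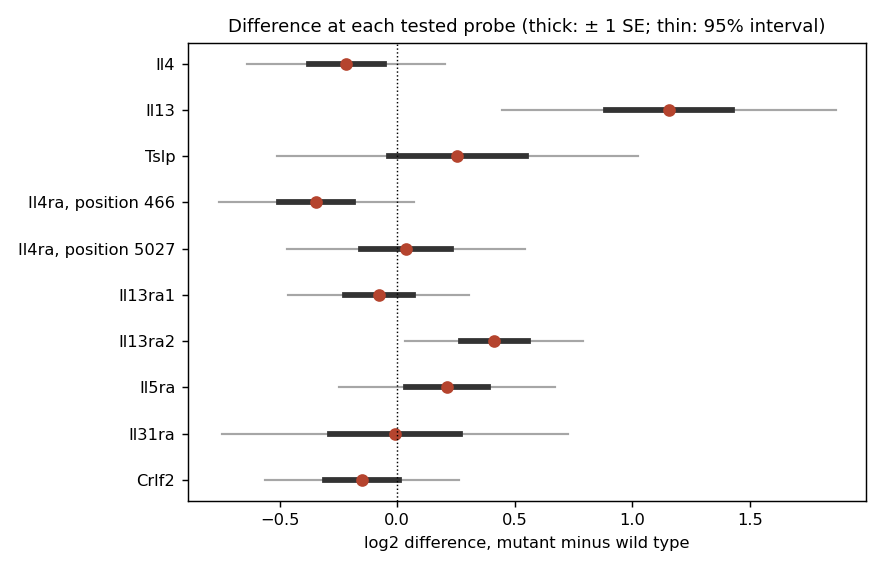
Log2 difference, mutant minus wild type, at each of the 10 tested probes, with thick lines for ± 1 moderated standard error and thin lines for the unadjusted 95% interval. The intervals of Il13 (1.15 ± 0.27) and Il13ra2 (0.41 ± 0.14) lie above 0 and those of the other 8 probes include 0, and no probe passed the threshold after adjustment.

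Neither Il13 nor Il13ra2 passed the threshold in any of 17 other settings of the processing. Filters, variance models and blocks leave the estimate of these probes as it is, and since their groups do not overlap, leaving out a mouse cannot turn its sign. Over the settings the difference of Il13 ran from 0.64 to 1.47 (adjusted p from 0.282 to 0.831) and that of Il13ra2 from 0.30 to 0.53 (adjusted p from 0.608 to 1). Il4 ran from -0.38 to -0.05. Without mutant mouse 2 the difference of Il4 was -0.38 and without mutant mouse 1 it was -0.05.

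**Figure D4:**
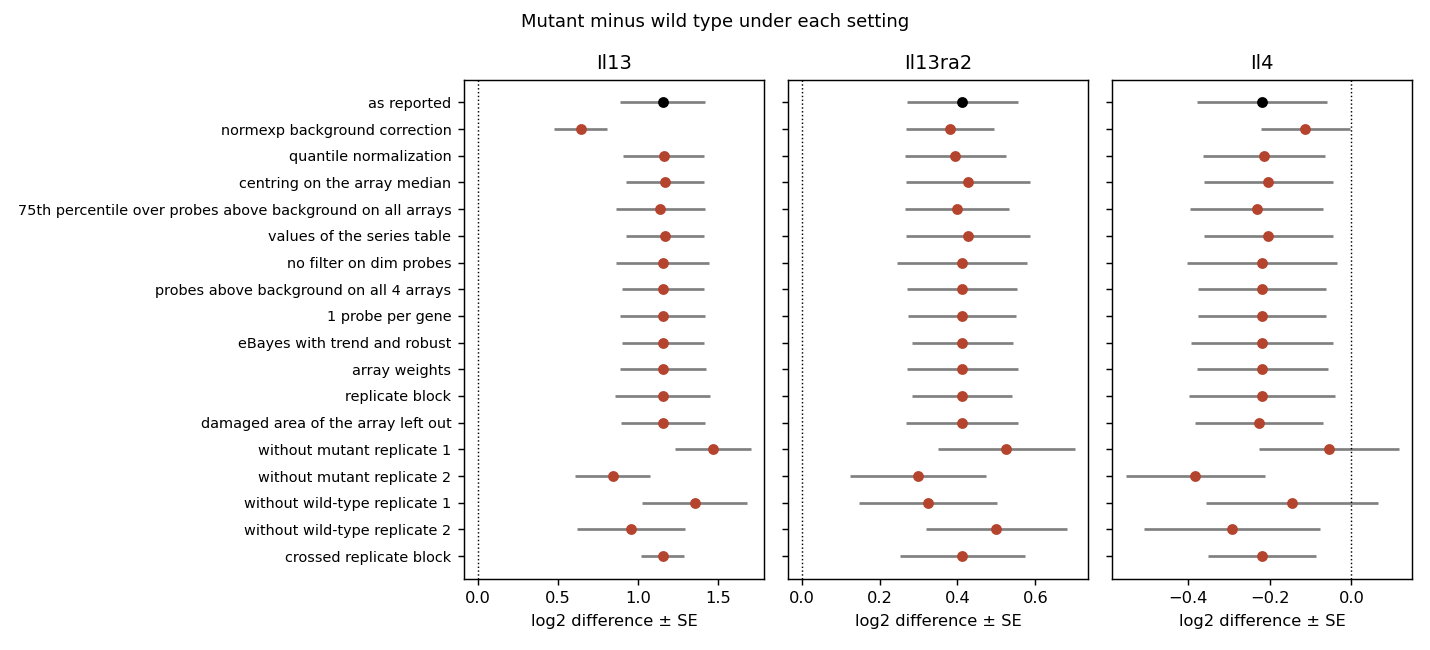
Log2 difference, mutant minus wild type, with its standard error, for Il13, Il13ra2 and Il4 as reported (black) and under 17 other settings of the processing (red), each panel with its own axis. Il13 runs from 0.64 with normexp background correction to 1.47 without mutant mouse 1, while filters, variance models and blocks change only the standard error or the set of probes.

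Genes of the surrounding pathway were taken from lists, each gene at its brightest tested probe. Over all genes at that probe 0.0168% passed the threshold and the median log2 difference was 0.01. The lists had 0 members past the threshold with limma, and at an unadjusted p under 0.05 they are counted beside 6.13% of all genes. Partner chains, kinases and STATs of the receptors had 16 tested members, 1 of them with an unadjusted p under 0.05, 5 above 0 and 11 below, with a median of -0.08. Il2rg, the common gamma chain that pairs with the IL-4 receptor alpha chain, had levels of 0.32 and 0.40 in the mutants and 0.95 and 0.64 in the wild types and a difference of -0.43 ± 0.15 (adjusted p = 0.739). Tyk2, a Janus kinase, had -0.32 ± 0.13, and Csf2rb, the beta chain that pairs with Il5ra, had -0.25 ± 0.14. Osmr, the partner of Il31ra, had 0.24 ± 0.14. The signal transducer Stat6, named for its role, had -0.15 ± 0.14.

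Alarmins, other type 2 cytokines and their receptors had 10 tested members of 13, with 1 at an unadjusted p under 0.05, 4 above 0, 6 below and a median of -0.12. That median was -0.03 with normexp background correction, -0.02 without mutant mouse 1, -0.03 without wild-type mouse 1, -0.07 without mutant mouse 2 and -0.21 without wild-type mouse 2. Il25, Il31 and Il9 were not tested, since they were not well above background on both arrays of a group. Il1rl1, the IL-33 receptor, had 0.44 ± 0.20 at its brightest probe and between -0.29 and 0.58 over its 3 probes. Il33, an alarmin of epithelial nuclei, had 0.38 ± 0.31, Csf2, which encodes GM-CSF, -0.39 ± 0.12, and Il3 -0.22 ± 0.28. The unadjusted p under 0.05 in this list was that of Csf2, whose signal was near background. Its levels were -5.22 and -5.32 in the mutants and -4.80 and -4.97 in the wild types. Those of Il5, not well above background, were -5.42 and -5.43 in the mutants and -6.04 and -5.35 in the wild types. The 11 genes of T helper 2 and group 2 innate lymphoid cells, 2 of which are also in the list before, had a median of 0.02. Of the 11, 6 were above 0 and 5 below, and 1, Rora, had an unadjusted p under 0.05. With a mouse left out that median ran from -0.14 to 0.06. Beside Il1rl1, the largest differences there were those of Rora (-0.40 ± 0.14, adjusted p = 0.753), a nuclear receptor gene needed for group 2 innate lymphoid cells, and Ptgdr2 (0.40 ± 0.22), a prostaglandin D2 receptor gene. Gata3, the factor that sets the identity of these cells and named for that role, had 0.02 ± 0.13.

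Genes known to be induced by IL-4 and IL-13 had 20 tested members of 21, of which 16 were above 0 and 4 below, with a median of 0.13, where 53.5% of all genes were above 0. Without wild-type mouse 2 that median was 0.06 and without wild-type mouse 1 it was 0.22. Of the 20, 1 had an unadjusted p under 0.05, and 5 lay above and 1 below with no overlap, against 18.9% and 17.4% of all genes. Chil4, which encodes a chitinase-like protein, had levels of -0.86 and 1.23 in the mutants and -3.79 and -3.49 in the wild types. Its difference was 3.82 ± 0.71 (limma's adjusted p = 0.525), and the 2 mutants were further apart than the 2 wild types. Alox15, a lipoxygenase, had 0.72 ± 0.36, Ccl17, a chemokine for T helper 2 cells, 0.49 ± 0.31, and Pdcd1lg2, the ligand PD-L2, -0.56 ± 0.25. The other 16 members had smaller differences, among them Retnla (0.14 ± 0.13), Arg1 (0.09 ± 0.24) and Chil3 (0.21 ± 0.23), marker genes of alternatively activated macrophages in mice, which were named for that role.

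The neighbours of the cytokine cluster on chromosome 11 had 14 tested members of 15, with 7 above 0 and 7 below, a median of -0.02 and a range of -0.41 to 0.22. Of the 14, 1 had an unadjusted p under 0.05. With no overlap, 5 lay above and 4 below, against 18.9% and 17.4% of all genes. Rad50, whose gene lies between Il13 and Il5 and holds control elements of the T helper 2 cytokines in mice, had 0.03 ± 0.12 (limma's adjusted p = 0.979). The largest differences in this list were those of Slc22a4 (-0.41 ± 0.14), a transporter gene, and Irf1 (-0.37 ± 0.17), an interferon-responsive factor. Il13, picked here as the tested member with the largest difference, had a larger one than any tested neighbour in the list. That choice largely set this outcome, since 1.84% of all tested probes had an absolute difference of at least 1. Whether the difference is confined to Il13 was not tested.

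Markers of cell types that make or answer these cytokines differed in direction, and in bulk tissue fewer cells of a type and less RNA per cell cannot be told apart. Eosinophil markers had 8 tested members of 10, with a median of 0.84, which was 0.50 with normexp background correction and 0.57 without mutant mouse 2. Prg2, a granule protein gene, was below background in wild-type mouse 2 and so was tested only through the mutants, where it was brighter. Of the 7 members above background on all 4 arrays, 7 were above 0, against 53.5% of all genes, and 6 lay above with no overlap, against 18.9%. Their median was 0.72, and 4 of the 7 had an unadjusted p under 0.05, against 6.13%. Of these 7, Il5ra is itself among the 10 genes described and Alox15 is in the list of induced genes. Without that pair the median was 0.96 over 5 members. Summed over the 7 members, the level was 4.56 and 6.44 times the array's 75th percentile in the mutants and 3.35 and 2.02 times in the wild types. Ear1 and Ear2, ribonuclease genes that are close copies and that probes may not separate, made up 3.59 and 5.14 of it in the mutants and 2.56 and 1.28 in the wild types. Without them the sums were 0.97 and 1.3 in the mutants against 0.79 and 0.73 in the wild types. Siglecf, a defining receptor of eosinophils, had 0.96 ± 0.25 (adjusted p = 0.631), and Epx and Prg3, genes of their granules, were too dim to be tested. Basophil markers had 5 tested members of 5, with a median of -0.41 and sums of 1.03 and 1.18 in the mutants against 1.66 and 1.48 in the wild types. Prss34, a protease gene, was below background in mutant mouse 1 and so was tested only through the wild types, where it was brighter. The other 4 members were all below 0, with a median of -0.28, where 53.5% of all genes were above 0. Of these 4, Fcer1a (-0.121 ± 0.215) and Ms4a2 (-0.159 ± 0.336) are also in the list of mast cell markers. The mutants lay lower with no overlap at 1 of the 4, against 17.4% of all genes. The basophil median over the 5 was -0.17 with normexp background correction, -0.13 without wild-type mouse 1, -0.72 without wild-type mouse 2 and -0.64 without mutant mouse 2. Mcpt8, the basophil protease, had levels of -1.85 and -1.49 in the mutants and -0.78 and -0.45 in the wild types, a difference of -1.06 ± 0.20 (adjusted p = 0.525). T cell markers had 11 of 11 tested members below 0, where 53.5% of all genes were above 0, with a median of -0.27. The mutants lay lower with no overlap at 4 of the 11, against 17.4% of all genes, and 0 had an unadjusted p under 0.05. Cd4 had 0.114 at its other probe. The T cell sums were 20.8 and 24 in the mutants against 27.7 and 23.6 in the wild types, which overlap. The T cell median was -0.11 without mutant mouse 1 or without wild-type mouse 1, and -0.44 without mutant mouse 2. Mast cell markers had 3 members above 0 and 7 below, with a median of -0.10, which was -0.02 with normexp background correction and turned to 0.16 without wild-type mouse 1. Neutrophil markers had 5 members above 0 and 2 below, with a median of 0.19. Their sums were 489 and 477 in the mutants against 247 and 283 in the wild types. In these sums S100a8 (1.71 ± 0.18) and S100a9, which keratinocytes also express, weigh most, while Ly6g had -0.09 ± 0.16. B cell markers had 3 tested members of 5, of which 3 were below 0, where 53.5% of all genes were above 0. Their median was -0.38, which was -0.20 with normexp background correction. Macrophage and dendritic cell markers had 3 members above 0 and 7 below, with a median of -0.14, which was -0.005 without wild-type mouse 1. An unadjusted p under 0.05 was found at 2 of 5 basophil members, Prss34 included, 0 of 10 mast cell and 2 of 7 neutrophil members. It was found at 1 of 3 B cell and 1 of 10 macrophage and dendritic cell members, against 6.13% of all genes. None of these markers passed the threshold over all probes. The part of these cell types in the values of Il13, Il13ra2 and Il4 was not tested.

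**Figure D5:**
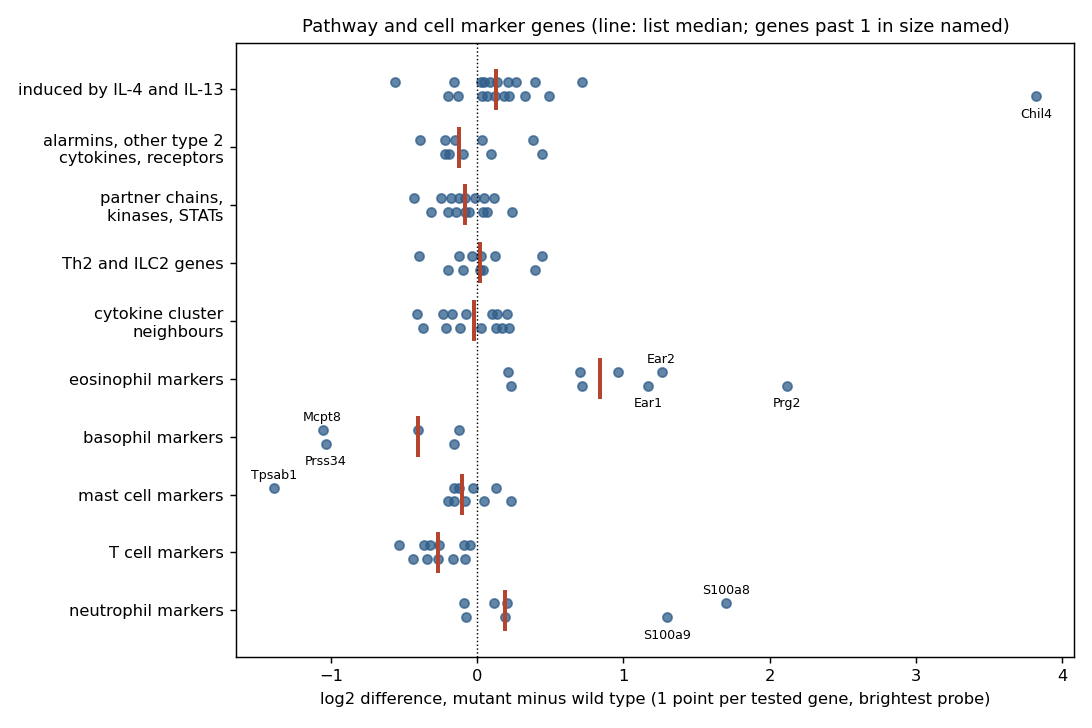
Log2 difference, mutant minus wild type, of each tested gene at its brightest probe in 10 lists of pathway genes and cell markers, with a red line at each list's median and the names of genes with a difference over 1 in size. Eosinophil markers (median 0.84, with Prg2 tested only through the mutants) lie to the right of 0 and basophil markers (median -0.41, with Prss34 tested only through the wild types) to the left, while the partner chains, the T helper 2 genes and the cluster neighbours lie on both sides of 0.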

How the data were processed

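Per the file headers, the authors' processed intensities were made with Feature Extraction 10.7.3.1 of Agilent. It fitted the background over the array and subtracted it, removed a multiplicative trend, and gave dim spots surrogate values. Arrays were not scaled to each other, and probes were placed on mm9. The deposited raw mean and local background intensities are uncorrected, per the file headers. The deposited flags (other values, 0 or 1) mark spots well above background, saturated or outlying. The authors' series table holds, as found from its deposited values, the linear ratio of each processed intensity to the array median. RNA was labelled from 100 ng, per the labels.

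From these, 3671 control spots and spots with an outlier flag were left out, intensities were put on the log2 scale, the array's 75th percentile (588.7 to 663.5) was subtracted and spots of a probe were averaged. Mutant and wild type were compared over 33674 probes with lmFit and eBayes of limma 3.58.1 in R 4.3.3, two-sided, with 2 residual and 2.55 prior degrees of freedom and a threshold of 0.05 after adjustment. Files were read with the data.table package (version 1.17.8) and figures drawn with matplotlib 3.10.9 in python 3.11.15. The fit was tested on simulated data. The damaged corner was set from all spots, as the rows and columns of the cluster of spots lying over 4 log2 units below the lowest of the other 3 arrays, widened by 5 spots (85 such spots on that array, 1 to 12 on the others). Members and lists were chosen with earlier results of these data known, and up to 4 genes with the largest difference are named of the partner, alarmin and induced lists. Genes of other lists are defining markers or were named for their role or size after their values were seen. Symbols were updated through the RefSeq table. Alternatives covered background correction, scaling, dim probes, probe choice, variance model, array weights, replicate blocks, the corner and each mouse left out. Sequences of Tslp are not reported here.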

Additional observations from a re-analysis of the deposited data

How the results depend on the processing

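With limma, 0 of the member probes passed the threshold under any of the 17 alternatives, and 2 had an unadjusted p under 0.05 as reported. Over all tested probes 7 passed. The count was 1 with no filter on dim probes, 2 with probes above background on all 4 arrays, 4 with 1 probe per gene and 35 with a trended, robust variance. It was 1 with the replicate number as a block, under which Il13 had an adjusted p of 0.796. Deviations of mice with the same number correlated at -0.16 over all tested probes and at -0.23 outside the damaged corner, so the numbers were not taken as pairs. With the numbers crossed, an alternative chosen after seeing the data, the count was also 1 and limma's adjusted p of Il13 was 0.299. With a mouse left out the count ran from 0 (without wild-type mouse 1 or 2) to 177 (without mutant mouse 1), and the lone mouse is then assumed to vary like the other group. With a mouse left out Il13 ran from 0.84 to 1.47 on the log2 scale, Il4ra at position 5027 from -0.18 to 0.25, Il13ra1 from -0.20 to 0.0449, Il31ra from -0.36 to 0.34, Il5ra from 0.0093 to 0.41, Il4ra at position 466 from -0.51 to -0.18, Tslp from -0.0737 to 0.59 and Crlf2 from -0.31 to 0.0075. Il31ra also turned to 0.022 with normexp, 0.0062 with quantile normalization and 0.0046 with median centring or the series table. The causes were not tested. Signal near background limits Il5, Csf2 and the Il31ra probe at position 1567.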
